A study of Mus musculus with 18 samples.

Results

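Growth signalling through the EGF receptor family and through HGF and its receptor Met was followed in 10 genes, taken by name from 17180 genes that at least 1 table listed: the receptors Egfr, Erbb2, Erbb3 and Met, the ligands Tgfa, Hbegf, Areg and Hgf, the HGF activator Hgfac and the receptor inhibitor Errfi1. Liver RNA of C57BL/6 mice was sequenced after removal of 2/3 of the liver (partial hepatectomy), 0.5, 2, 4, 24, 48, 72, 120 or 168 h later, and after a sham operation. The labels give neither the time at which the sham livers were taken nor the sex or age of the mice. Each of the 9 groups held 2 libraries, and each library was RNA of 3 mice pooled, so that the p-values below rest on the spread between pools and not between single animals.

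Receptors of the EGF family bind ligands that are made as membrane proteins and released by shedding enzymes. They signal as pairs to the Ras-MAP kinase and PI3 kinase routes, and Erbb3, whose own kinase is nearly inactive, lends docking sites to a partner. HGF is secreted as an inactive single chain, cut into its active form by serine proteases such as the Hgfac product, and bound by Met; in liver it comes mainly from stellate and endothelial cells while hepatocytes carry Met. Both routes are textbook growth signals of the regenerating liver.

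Library totals ran from 7.78 to 9.16 times 1000000 uniquely mapped reads. Levels are given in CPM, counts per 1000000 reads of the TMM-scaled total. The tables of 16 libraries were complete, so that a gene not listed there had 0 reads. Those of sham replicate 2 and 0.5 h replicate 1 ended early, so that a gene not listed in them is unknown below 6.52 and 19 CPM. Egfr, Erbb3, Met, Tgfa, Hgfac and Errfi1 were listed in all 18 libraries and were tested there among 4906 genes. Erbb2, Hbegf and Hgf were tested among 12199 genes in the 16 complete libraries, where sham and 0.5 h have 1 library each, assumed to vary like the other groups. Areg, with 5 reads in all, was not tested. The libraries carried the hepatocyte genes of a liver sample at high level (Alb 48725 to 130151 CPM), and the proliferation gene Mki67 stood at 7.11 CPM in sham and at a mean of 120 CPM at 48 h.

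Per length the members spanned several orders of magnitude. On the scale of RPKM (reads per kilobase of gene length, scaled to the library total), the median level over libraries was 376 for Errfi1 and 126 for Egfr, followed by 69.4 for Hgfac. Erbb3 (11.4), Met (7.47) and Tgfa (6.57) formed a middle group whose ranges overlapped, from 2.77 to 16.2, 3.95 to 11.5 and 2.57 to 11.1 RPKM. Hgf (1.47), Hbegf (0.435) and Erbb2 (0.18) were scarce, and the Areg median was 0. Of the 4 EGF receptor family genes, Erbb4 was at most 0.165 RPKM in any complete library, so that in these livers the family was represented by Egfr and Erbb3, with traces of Erbb2.

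Positions are given for 9 members (build GRCm38, GENCODE M21). Egfr lies on chromosome 11 from 16752203 to 16918158, Erbb2 on chromosome 11 from 98412470 to 98437716, Erbb3 on chromosome 10 from 128567523 to 128589652 and Met on chromosome 6 from 17463800 to 17573980. Tgfa lies on chromosome 6 from 86195223 to 86275719, Hgf on chromosome 5 from 16553495 to 16620152, Hgfac on chromosome 5 from 35041509 to 35048461, Areg on chromosome 5 from 91139599 to 91148432 and Errfi1 on chromosome 4 from 150853919 to 150868892. Exons of 3 members overlap those of another gene: Erbb2 with Mien1 over 9 bases and Tgfa with the gene model Gm43917 over 118 bases, both on the opposite strand, and Hgf with Gm43489 over 484 bases on its own strand. No source used here gives the strand used in counting, so that reads in those bases could belong to either gene.

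Bases before the transcription start are shown for the most abundant members, Errfi1 and Egfr, which were both highest at 4 h, for Hgfac, which was lowest at 48 h, and for Areg, whose window shares 3 motifs with that of Errfi1. The windows were chosen after their levels and matches were seen. They were read from RefSeq (GRCm38.p6), 250 bases up to the start on the plus strand, for 8 of the 10 members. The Errfi1 window lies before the later of its 2 starts (chr4:150854820-150855069), within an intron of the transcript from the earlier start and across an exon of the antisense gene 1700045H11Rik. The others are chr5:91139349-91139598 for Areg, chr11:16751953-16752202 for Egfr and chr5:35041259-35041508 for Hgfac. Capitals mark matches, on either strand, to any of 8 motifs: the AP-1 motif TGANTCA, the cAMP response element TGACGTCA, the GC box with the letters GGGCGG, the E-box with CACGTG, the CCAAT box, the TATA box with TATAAA, the STAT motif TTCNNNGAA and the forkhead motif GTAAACA.
Errfi1: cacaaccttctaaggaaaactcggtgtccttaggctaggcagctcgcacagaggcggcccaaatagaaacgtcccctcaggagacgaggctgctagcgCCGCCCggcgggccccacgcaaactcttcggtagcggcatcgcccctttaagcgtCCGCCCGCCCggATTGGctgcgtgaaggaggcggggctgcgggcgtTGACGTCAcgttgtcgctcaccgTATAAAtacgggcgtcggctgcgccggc
Areg: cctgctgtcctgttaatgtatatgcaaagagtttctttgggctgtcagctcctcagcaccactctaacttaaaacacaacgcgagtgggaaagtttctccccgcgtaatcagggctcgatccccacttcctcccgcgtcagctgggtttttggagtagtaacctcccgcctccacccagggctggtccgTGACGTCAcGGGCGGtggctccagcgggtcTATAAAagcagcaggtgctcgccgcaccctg
Egfr: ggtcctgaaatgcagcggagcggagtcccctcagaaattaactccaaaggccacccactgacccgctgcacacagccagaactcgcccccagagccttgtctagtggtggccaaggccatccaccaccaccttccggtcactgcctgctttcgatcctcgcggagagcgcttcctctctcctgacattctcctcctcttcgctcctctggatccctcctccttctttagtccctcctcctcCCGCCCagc
Hgfac: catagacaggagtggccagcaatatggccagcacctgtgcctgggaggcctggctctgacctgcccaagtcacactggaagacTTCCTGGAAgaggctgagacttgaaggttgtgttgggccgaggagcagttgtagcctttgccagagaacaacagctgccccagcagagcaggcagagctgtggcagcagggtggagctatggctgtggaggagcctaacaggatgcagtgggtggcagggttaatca

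Besides matches to the GC box and CCAAT, the Errfi1 window held TGACGTCA with its first base at -51 and TATAAA at -28, and the Areg window held these at -61 and -31, with a GC box at -52. Over the 250 bases before 32851 RefSeq starts, TGACGTCA occurred in 1.55% and TATAAA in 12.4%, and both in 39 windows or 0.119%. These 2 genes were at opposite ends of the range of levels, with a median of 376 RPKM for Errfi1 and of 0 for Areg. Hgfac held 1 match to TTCNNNGAA at -167, a motif found in 7.02% of windows, and Egfr held 1 GC box at -9, found in 32.7%. The window before the earlier Errfi1 start held none of the 8 motifs. A match is a run of letters, and no binding was measured here.

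Over the whole course 6 of the 9 tested members differed among the 9 groups (edgeR adjusted p under 0.05): Hgfac (2.91e-05), Errfi1 (3.46e-05), Erbb3 (0.000109), Hgf (0.00931), Egfr (0.0159) and Met (0.0339). That is 5 of 6 in the 18-library fit, where 68.6% of all genes were called, and 1 of 3 in the 16-library fit, where 42.8% were, so that such a call is common in this course. Tgfa (0.0558), Hbegf (0.186) and Erbb2 (0.201) missed the threshold. Tgfa passed it in DESeq2 (0.00241), with library totals alone as the scale (0.00391) and in limma-trend on RPKM (0.00268 and 0.00321), and Hbegf when low genes were not filtered out (0.037). The calls of Hgfac, Errfi1 and Erbb3 held without each library in turn, at adjusted p of at most 0.00075. That of Egfr was lost with library totals alone as the scale (0.285), in limma-trend on RPKM (0.235 and 0.236) and without 4 h replicate 1. With unlisted genes taken as 0, the calls of Egfr (edgeR adjusted p = 0.0531), Met (0.0742) and Hgf were lost. That of Met was lost without any of 6 libraries, at adjusted p from 0.051 without 168 h replicate 1 to 0.105 without sham replicate 1; the other 4 were 4 h replicate 1, both at 48 h and 168 h replicate 2.

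Against sham, edgeR called 11 of 72 member-by-time tests, 2 of them rises, both of Errfi1, and 9 falls. In the 18-library fit 2 of 6 members were called at 2 h, 1 higher and 1 lower, where 8.76% of all genes were called, 4.61% higher and 4.16% lower. At 4 h it was 3 of 6, 1 higher and 2 lower, where 35.7% of genes were called (16.9% higher, 18.8% lower). Another 2 of 6 were called lower at 24 h (17.3% of genes, 7.87% higher and 9.46% lower) and at 48 h (36.8%, 18% and 18.9%), and at 72 h 2 of 6 were lower (12.6%, 6.16% and 6.42%). With so few members these shares are too coarse to be placed above or below those of all genes. None of the 9 tested members was called at 0.5, 120 or 168 h (0.204%, 0.775% and 5.75% of all genes), where 0, 2 and 2 of them had an unadjusted p under 0.05, DESeq2 called Met at 168 h alone and limma-trend on log2 CPM called none. None of the 3 scarce members was called at any time in the 16-library fit, where in order of time 0.0492%, 2.65%, 15.5%, 2.93%, 14.9%, 3.82%, 0.107% and 0.082% of genes were. Of these 24 tests, Hgf at 120 h and 168 h had an unadjusted p under 0.05, and neither DESeq2 nor limma called any.

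In such bulk RNA, fewer cells of a type and less RNA per cell cannot be told apart. Scaling also matters here: with library totals alone, the median log2 change of all 4906 genes against sham was -0.17, -0.37, 0.11 and 0.15 for 2, 4, 24 and 48 h, and it was 0.48 for 24 h against 4 h. TMM brings these medians near 0, and changes below are relative to that. At 4 h the split of member calls was 1 higher and 2 lower with TMM, and 1 higher and 4 lower with totals alone. At 24 h, where TMM gave 0 higher and 2 lower, totals alone gave 1 higher and 2 lower, and at 2 h 1 higher and 1 lower became 0 higher and 1 lower.

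**Figure D1:**
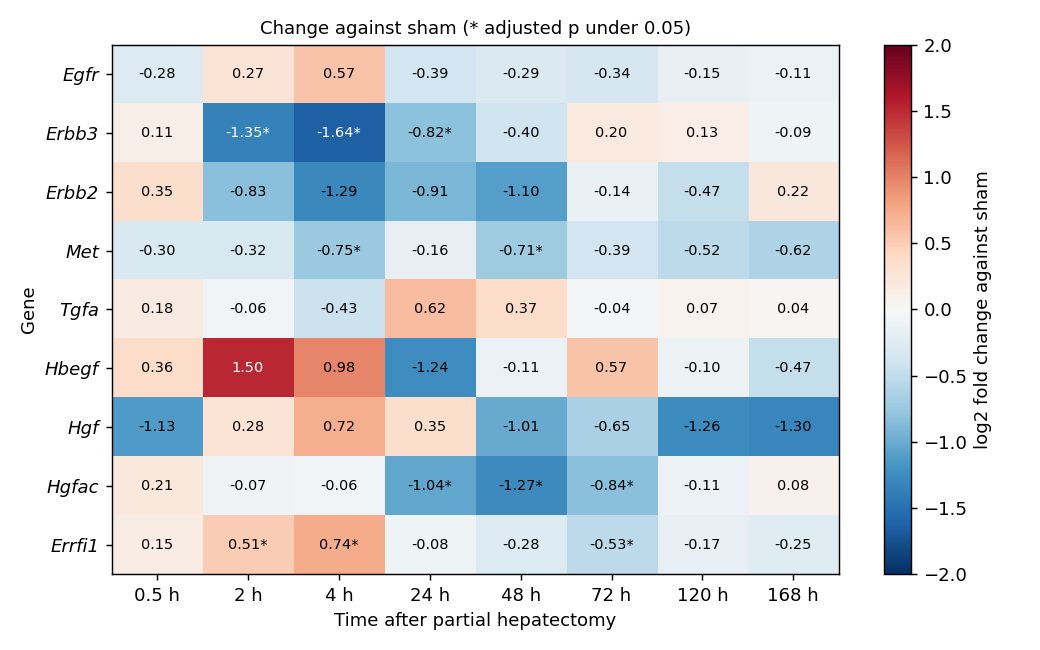
Log2 fold change against sham (colour and printed value) of the 9 tested members at the 8 times after partial hepatectomy; asterisks mark edgeR adjusted p under 0.05. Erbb3 was lowest at 4 h (-1.64), Hgfac at 48 h (-1.27), and Errfi1 was highest at 4 h (0.74).

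Egfr, the receptor shared by Tgfa, Areg and Hbegf, stood at 793 and 799 CPM in the 2 sham pools, 710 and 600 at 0.5 h, 895 and 1021 at 2 h, 1228 and 1131 at 4 h, 606 and 609 at 24 h, 623 and 678 at 48 h, 821 and 438 at 72 h, 684 and 753 at 120 h, and 827 and 651 at 168 h. The 4 h pools were the 2 highest of the 18, and the 24 h pools lay below both sham pools. At 4 h the log2 change against sham was 0.57 ± 0.22 (SE), which missed the threshold (edgeR adjusted p = 0.0595), and with library totals alone it was 0.19 (0.454). It passed in DESeq2 (0.57, adjusted p = 0.0289) and with only the 2 groups in the edgeR fit (0.56, 0.023), so the call depends on the setting. Egfr fell from 4 h to 24 h by 0.96 ± 0.22 on the log2 scale (edgeR adjusted p = 0.00473). With totals alone that fall was 0.46 and missed the threshold (0.0599). The 72 h pools differed more from each other than those of any other group, and without 72 h replicate 1 Egfr at 72 h stood 0.86 on the log2 scale below sham (edgeR adjusted p = 0.00862), while the change at 4 h then passed at 0.00739.

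Erbb3, the receptor that pairs with Egfr or Erbb2 and binds neuregulins, was 57.5 and 40.9 CPM in sham, 46.0 and 60.5 at 0.5 h, 17.4 and 21.1 at 2 h, 14.6 and 16.9 at 4 h, 21.9 and 33.9 at 24 h, 33.8 and 40.9 at 48 h, 61.8 and 51.6 at 72 h, 54.3 and 53.4 at 120 h, and 45.9 and 46.8 at 168 h. All pools from 2 h to 24 h lay below all sham and 0.5 h pools. Against sham Erbb3 fell by 1.35 ± 0.23 at 2 h (edgeR adjusted p = 0.00212), by 1.64 ± 0.23 at 4 h (0.000146), to 0.32 of the sham level, and by 0.82 ± 0.22 at 24 h (0.0196). From 0.5 h to 2 h, a step that does not use sham, it fell by 1.47 ± 0.22 (0.00111), where 13.3% of all genes were called. The falls at 2 h and 4 h kept their call under all 11 other settings and without each of the 18 libraries. That at 24 h was lost without sham replicate 1 (log2 change -0.55, edgeR adjusted p = 0.202), without 24 h replicate 1 (-0.55, 0.119) and with only the 2 groups in the fit (0.123). From 48 h on Erbb3 was not called against sham, with log2 changes from -0.40 to 0.20.

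Erbb2, the family member without a ligand of its own, gave 3 to 21 reads per library. It was 1.37 CPM in the sham library, 1.75 at 0.5 h, 0.709 and 0.817 at 2 h, 0.479 and 0.624 at 4 h, 0.626 and 0.823 at 24 h, 0.576 and 0.689 at 48 h, 0.981 and 1.49 at 72 h, 1.04 and 0.936 at 120 h, and 0.889 and 2.30 at 168 h. The lowest library and the lowest mean were those of 4 h, with a log2 change of -1.29 ± 0.73 against sham (edgeR adjusted p = 0.264).

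Met, the HGF receptor, was 73.9 and 59.9 CPM in sham, 49.1 and 59.9 at 0.5 h, 59.3 and 47.8 at 2 h, 34.3 and 45.0 at 4 h, 70.0 and 49.8 at 24 h, 41.2 and 40.7 at 48 h, 47.4 and 54.6 at 72 h, 42.2 and 51.2 at 120 h, and 45.6 and 41.6 at 168 h. Sham held the highest mean of the 9 groups. Of the 10 pools at 4 h and from 48 h on, 9 lay below 52 CPM. So did 0.5 h replicate 1 (49.1), 2 h replicate 2 (47.8) and 24 h replicate 2 (49.8), so this level does not separate those times from the others. Met fell by 0.75 ± 0.20 at 4 h (edgeR adjusted p = 0.00899), to 0.593 of sham, and by 0.71 ± 0.19 at 48 h (0.012). Both calls rest in part on sham replicate 1, without which they were -0.59 (0.0871) and -0.55 (0.111). The fall at 4 h was also lost without 4 h replicate 1 (-0.56, 0.102), and that at 48 h without either 48 h pool (0.0526 and 0.0627). At 168 h the change of -0.62 ± 0.19 missed the threshold in edgeR (0.0665) and passed it in DESeq2 (-0.61, adjusted p = 0.0157).

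**Figure D2:**
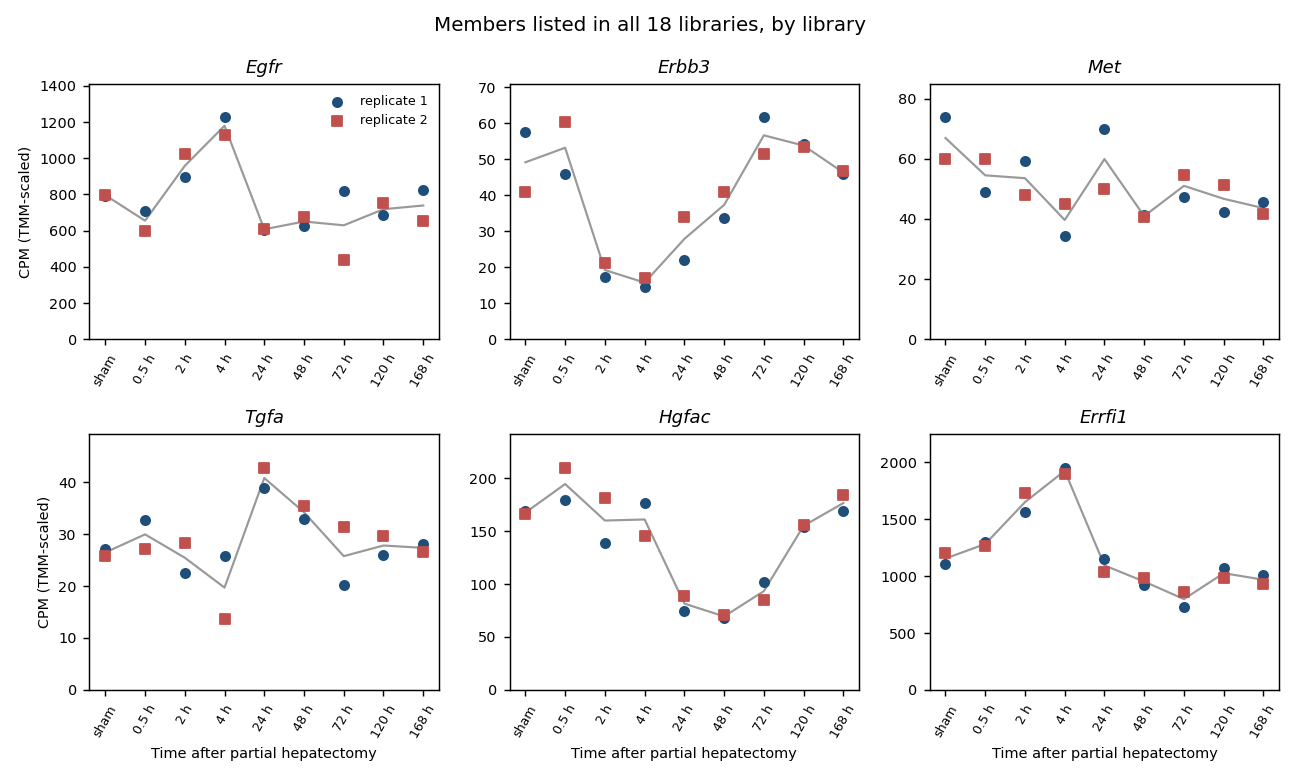
TMM-scaled CPM of the 6 members listed in all 18 libraries, 1 panel per gene with its own linear axis from 0; circles and squares are the pools numbered 1 and 2, lines join the group means, and times are evenly spaced rather than to scale. Erbb3 falls to 14.6 and 16.9 CPM at 4 h while Errfi1 rises to 1954 and 1898 and Hgfac is lowest at 48 h with 67.9 and 70.9.

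Among the ligands of Egfr, Tgfa was the only one with more than a trace. It was 27.1 and 25.8 CPM in sham, 32.8 and 27.1 at 0.5 h, 22.6 and 28.3 at 2 h, 25.7 and 13.7 at 4 h, 38.8 and 42.8 at 24 h, 33.0 and 35.4 at 48 h, 20.2 and 31.3 at 72 h, 26 and 29.6 at 120 h, and 28.1 and 26.6 at 168 h. The 24 h pools were the 2 highest of the 18, and 4 h replicate 2 was the lowest. Against sham no time passed: at 24 h the log2 change was 0.62 ± 0.24 (edgeR adjusted p = 0.0882; 0.0322 in DESeq2), and at 4 h it was -0.43 ± 0.25 (0.21), or -0.81 with library totals alone (0.0171). Tgfa rose from 4 h to 24 h by 1.05 ± 0.25 (edgeR adjusted p = 0.00554), a 2.07-fold rise. Without 4 h replicate 2 that step was 0.64 and missed the threshold (0.0671).

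Hbegf, a ligand of Egfr made by many cell types, gave 1 to 22 reads per library. Its level was 0.998 CPM in sham, 1.28 at 0.5 h, 2.83 and 2.86 at 2 h, 3.03 and 0.936 at 4 h, 0.626 and 0.206 at 24 h, 0.864 and 0.984 at 48 h, 0.763 and 2.18 at 72 h, 1.04 and 0.819 at 120 h, and 1.33 and 0.109 at 168 h. Both 2 h pools were high and alike, while of the 4 h pools 1 was as high and the other near sham. The log2 change at 2 h was 1.5 ± 0.96 (edgeR adjusted p = 0.544), and that from 4 h to 24 h -2.21 ± 0.88 (0.0885; 0.032 when low genes were not filtered out). Summed over pools and scaled by totals alone, 8 reads in sham made 1.03 CPM (95% Poisson interval 0.444 to 2.03) and 41 reads at 2 h made 2.48 CPM (1.78 to 3.36). Such intervals cover counting error only.

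Areg, the ligand amphiregulin, had 0 reads in 12 of the 16 complete libraries. One read fell in 2 h replicate 1, 3 in the 2 pools of 4 h and 1 in 24 h replicate 2. The 3 reads at 4 h made 0.189 CPM (exact 95% Poisson interval 0.0389 to 0.552). By the same interval 0 reads in the sham library allow up to 0.474 CPM, and by the bound of 3 reads up to 0.386. No change could therefore be read.

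Hgf, the ligand of Met, was 5.61 CPM in the sham library, 2.56 at 0.5 h, 8.08 and 5.59 at 2 h, 5.74 and 12.8 at 4 h, 8.56 and 5.76 at 24 h, 2.30 and 3.25 at 48 h, 2.84 and 4.27 at 72 h, 2.90 and 1.76 at 120 h, and 2.89 and 1.64 at 168 h. All pools from 2 h to 24 h were above all pools from 48 h on and above that of 0.5 h. Hgf differed over the whole course (edgeR adjusted p = 0.00931, and at most 0.0209 without each library in turn), while no single time passed against its 1 sham library and no step between neighbouring times passed. The log2 change was -1.36 ± 0.43 for 48 h against 24 h (edgeR adjusted p = 0.0742, or 0.0103 when low genes were not filtered out). Against sham it was -1.01 ± 0.53 at 48 h (0.203) and -1.3 ± 0.54 at 168 h (0.211). The summed level of 7 stellate cell markers, none at 0, did not follow that order: it was 263 CPM in sham, 224 to 329 from 2 h to 24 h, and highest at 72 h with 384 to 590. That peak lay in Col1a1 (mean 77.3 CPM against 7.73 in sham) and Col3a1 (154 against 28.4), while Dcn was highest at 4 h (194) and lowest at 48 h (77.3) and Lrat was highest in sham (20.7). The part of these cells in the Hgf values was not tested. The summed level of 7 sinusoidal endothelial markers, none at 0, was 244 to 381 CPM from 2 h to 24 h and 297 in sham. From 48 h on it was 234 to 322, so that its ranges overlapped between those times. Single markers moved in both directions at 4 h. Lyve1 went from 25.2 in sham to a mean of 113, and Clec4g and Pecam1 were also higher. Kdr went from 56.4 to 23.6 and Oit3 from 30.4 to 18.5, and Stab1 and Stab2 were slightly lower. The part of endothelial cells in the Hgf values was not tested either.

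**Figure D3:**
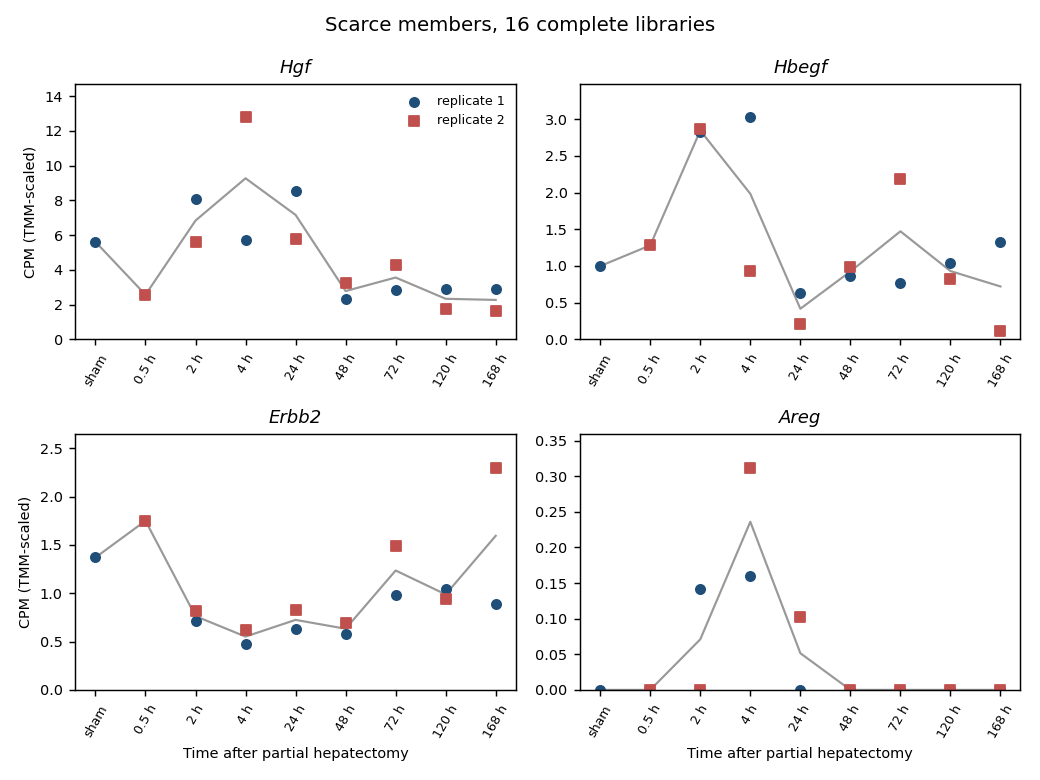
TMM-scaled CPM of the 4 scarce members in the 16 complete libraries, 1 panel per gene with its own linear axis from 0; circles and squares are the pools numbered 1 and 2, lines join group means or single values (sham and 0.5 h have 1 library), and times are evenly spaced. Hgf is higher from 2 h to 24 h (5.59 to 12.8) than from 48 h on (1.64 to 4.27), and Areg is at 0 in 12 of 16 libraries.

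Hgfac, a liver-made serine protease that activates HGF, was lowest from 24 h to 72 h. It was 169 and 166 CPM in sham, 179 and 210 at 0.5 h, 139 and 181 at 2 h, 177 and 145 at 4 h, 74.1 and 89.0 at 24 h, 67.9 and 70.9 at 48 h, 102 and 84.6 at 72 h, 154 and 156 at 120 h, and 169 and 184 at 168 h. The 6 pools of 24 h to 72 h were all below the other 12. Against sham Hgfac fell by 1.04 ± 0.15 at 24 h (edgeR adjusted p = 0.000972), by 1.27 ± 0.16 at 48 h (0.000148), to 0.414 of sham, and by 0.84 ± 0.15 at 72 h (0.00428). The first 2 of these kept their call under all 11 other settings and without each library, and the third was lost without 72 h replicate 2 (-0.70, 0.0803). With library totals alone Hgfac was also called lower at 4 h against sham (-0.44, 0.0196) and at 2 h against 0.5 h (-0.45, 0.0406).

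Between neighbouring times Hgfac fell by 0.98 ± 0.15 from 4 h to 24 h (edgeR adjusted p = 0.000333) and rose by 0.73 ± 0.15 from 72 h to 120 h (0.0354), a step at which 1.16% of all genes were called. The second of these was lost without any 1 of 7 libraries, most of all without 72 h replicate 2 (0.59, 0.53) and 120 h replicate 2 (0.72, 0.266), and stood at 0.0501 with library totals alone. At 120 h and 168 h the level against sham was 0.926-fold and 1.05-fold. The 6 hepatocyte markers, none at 0, summed to 112269 CPM in sham, 67024 to 78017 at 24 h, 107520 to 110496 at 48 h and 131250 to 158257 at 72 h. Hgfac was low at 24, 48 and 72 h, while the marker sum was below that of sham at 24 h, near it at 48 h and above it at 72 h. Most of the sum was Alb, at 90023 CPM in the complete sham library and a mean of 53964 at 24 h. Cps1 went the other way, from 3696 to 4439, and the other markers were lower at 24 h. The part of hepatocytes in the Hgfac values was not tested.

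Errfi1, whose product Mig-6 binds and blocks active EGF family receptors, was the most abundant member. It was 1107 and 1203 CPM in sham, 1301 and 1264 at 0.5 h, 1567 and 1734 at 2 h, 1954 and 1898 at 4 h, 1148 and 1040 at 24 h, 920 and 985 at 48 h, 732 and 864 at 72 h, 1070 and 982 at 120 h, and 1008 and 929 at 168 h. The 2 h and 4 h pools were all above the other 14, and the 72 h pools were the 2 lowest. Against sham it rose by 0.51 ± 0.12 at 2 h (edgeR adjusted p = 0.0184) and by 0.74 ± 0.12 at 4 h (0.000482), a 1.67-fold rise, and fell by 0.53 ± 0.12 at 72 h (0.0135).

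The Errfi1 rise at 4 h kept its call under all 11 other settings and without each library, at 0.36 with library totals alone (edgeR adjusted p = 0.0248). The rise at 2 h was lost with totals alone (0.35, 0.0803), without either sham pool (0.46, 0.165 and 0.58, 0.0665) and without 2 h replicate 2 (0.44, 0.126). The fall at 72 h was lost without either sham pool (-0.59, 0.0504 and -0.47, 0.0955) and without 72 h replicate 1 (-0.42, 0.0783). At 4 h, when Errfi1 was high and Erbb3 low, 6 matched neutrophil markers, none at 0, summed to 60.8 to 135 CPM against 13 in sham, and 6 cholangiocyte markers to 94.2 to 156 against 39. Of the latter Cftr was at 0 in 12 of the 16 libraries, sham included, while Spp1 went from 26.4 to a mean of 75.1 and Sox9 from 10.8 to 46.6. The hepatocyte markers were then 128669 to 137061 CPM. The part of these other cells in the member values was not tested.

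The step from 4 h to 24 h was the one at which most members moved. All 6 members in the 18-library fit were called, where 34.5% of all genes were (17.5% higher, 17% lower), and none of the 3 scarce ones, where 22.4% were and Hbegf alone had an unadjusted p under 0.05. Egfr, Hgfac and Errfi1 fell, by 0.96, 0.98 and 0.82 on the log2 scale (edgeR adjusted p = 0.00473, 0.000333 and 0.000243). Tgfa, Erbb3 and Met rose, by 1.05 ± 0.25, 0.82 ± 0.24 and 0.59 ± 0.20 (edgeR adjusted p = 0.00554, 0.016 and 0.0311). With only the 2 groups in the fit these 3 rises lost their call (edgeR adjusted p = 0.0638, 0.0784 and 0.123), while the 3 falls kept theirs. With unlisted genes taken as 0, Erbb3 and Met missed the threshold as well (0.0686 and 0.105). The Tgfa rise was lost without 4 h replicate 2, as given above. The Erbb3 rise was lost without 4 h replicate 1 (0.69, 0.111) or 24 h replicate 2 (0.46, 0.195), and the Met rise without 4 h replicate 1 (0.39, 0.242) or 24 h replicate 1 (0.32, 0.255). With library totals alone the 3 rises were 1.55, 1.31 and 1.08, and of the 3 falls those of Hgfac (-0.48, 0.0108) and Errfi1 (-0.32, 0.0355) passed. Over all 7 steps 8 member tests were called, these 6 and the Erbb3 and Hgfac steps given above. In the 18-library fit none of 6 was called from 2 h to 4 h (14.7% of genes), 24 h to 48 h (14.5%), 48 h to 72 h (3.67%) or 120 h to 168 h (0%), where 1, 1, 2 and 0 members had an unadjusted p under 0.05 and DESeq2 called Met from 24 h to 48 h alone (-0.54, 0.0283). With limma-trend on RPKM, Met was also called from 2 h to 4 h (0.0414 and 0.0356). In the 16-library fit none of the 3 scarce members was called at the other 6 steps, where in order 3.21%, 6.7%, 6.57%, 0.656%, 1.11% and 0% of genes were, with an unadjusted p under 0.05 for Hgf at the first and at 24 h to 48 h, and no call by DESeq2 or limma.

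**Figure D4:**
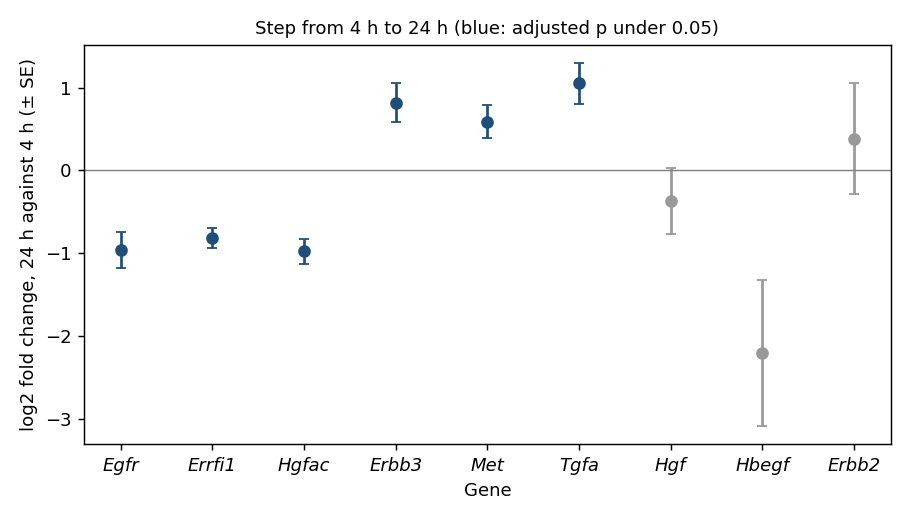
Log2 fold change of 24 h against 4 h for the 9 tested members, with bars of 1 SE from the edgeR fit; blue points passed an adjusted p of 0.05 and grey points did not. Egfr, Errfi1 and Hgfac lie below 0 and Erbb3, Met and Tgfa above it, and the SE of the scarce Hbegf (0.88) and Erbb2 (0.67) is several times that of Errfi1 (0.12).

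The other genes of the 2 routes were read from a list of 57, of which 50 were tested: 20 in 18 libraries, 10 in 17 and 20 in 16. At 4 h 15 were called, 11 higher and 4 lower. By fit that is 7 of 20 (35.7% of all genes), 5 of 10 (31.6%) and 3 of 20 (15.5%). The median log2 change of the 20 genes in 18 libraries was -0.03, of the 10 in 17 libraries 0.39 and of the 20 in 16 libraries 0.58, beside 0.01, 0.02 and 0.02 for all genes. With library totals alone the split at 4 h turned to 6 higher and 12 lower, so no common direction is given. At 48 h 14 were called, 8 higher and 6 lower (12 and 2 with totals alone), as 9 of 20 (36.8%), 3 of 10 (31.1%) and 2 of 20 (14.9%). Another 3 of the 20 were called at 2 h (8.76%), 2 at 24 h (17.3%) and 2 at 168 h (5.75%). At 0.5, 72 and 120 h edgeR called none, with 4, 7 and 5 at an unadjusted p under 0.05, while DESeq2 called 1 at each and limma-trend on log2 CPM 1 at 72 h alone. Of all genes, 12.6%, 9.61% and 3.82% were called at 72 h in the fits of 18, 17 and 16 libraries. At 0.5 h and 120 h at most 0.204% and 0.775% were.

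Of the other ligands, Nrg4, a neuregulin that binds Erbb4, moved most. It was 2.62 CPM in the sham library, 1.40 at 0.5 h, 10.8 and 12.4 at 2 h, 44.7 and 40.6 at 4 h, 3.97 and 6.68 at 24 h, 7.48 and 16 at 48 h, 3.16 and 8.34 at 72 h, 2.20 and 5.15 at 120 h, and 1.78 and 2.19 at 168 h. The 4 h pools were far above all others. Nrg4 rose at 4 h by 4.02 ± 0.67 (edgeR adjusted p = 0.00146), measured against 1 sham library of 21 reads, and fell from 4 h to 24 h by 3.00 ± 0.45 (0.000502), a step without sham. At 48 h the change was 2.16 ± 0.66 (edgeR adjusted p = 0.0423), a call that was lost without any 1 of 7 libraries. Without 48 h replicate 2 the change was 1.48. The others were the libraries of 2 h, 4 h and 168 h, and without each of them it stayed at 2.16. Erbb4 itself was between 0 and 0.595 CPM, at 0 in 5 of 16 libraries.

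Egf, Ereg and Epgn were traces, at most 0.815, 1.12 and 0.198 CPM, and were not tested. Btc was 1.34 to 3.67 CPM and Nrg1 0 to 2.78, and neither was called against sham. Rhbdf2, an iRhom that carries the shedding enzyme Adam17 to the cell surface, was 7.49 and 8.69 CPM in sham and 24.1 and 21.1 at 4 h, and rose by 1.48 ± 0.26 (edgeR adjusted p = 0.00102), or by 1.11 with library totals alone (0.00497). At 48 h its change was 0.78 ± 0.26 (0.0388), which was lost without either sham or either 48 h pool (0.0896 to 0.197). Spint2, an inhibitor of HGF-activating proteases, was 88.8 and 101 CPM in sham and 160 and 162 at 48 h, and rose by 0.76 ± 0.16 (edgeR adjusted p = 0.00325).

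Among the adaptors Grb7, which docks on Erbb2 and Erbb3, had a course like that of Erbb3. It was 108 and 96.9 CPM in sham, 118 and 106 at 0.5 h, 34.7 and 30.1 at 2 h, 20.4 and 25.8 at 4 h, 48.1 and 58.6 at 24 h, 70.5 and 61.0 at 48 h, 92.7 and 93.6 at 72 h, 101 and 92.0 at 120 h, and 109 and 125 at 168 h. Grb7 fell by 1.66 ± 0.15 at 2 h (edgeR adjusted p = 4.62e-05), by 2.15 ± 0.16 at 4 h (1.35e-06) and by 0.94 ± 0.14 at 24 h (0.00117). These 3 calls held under all 11 other settings and without each library.

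**Figure D5:**
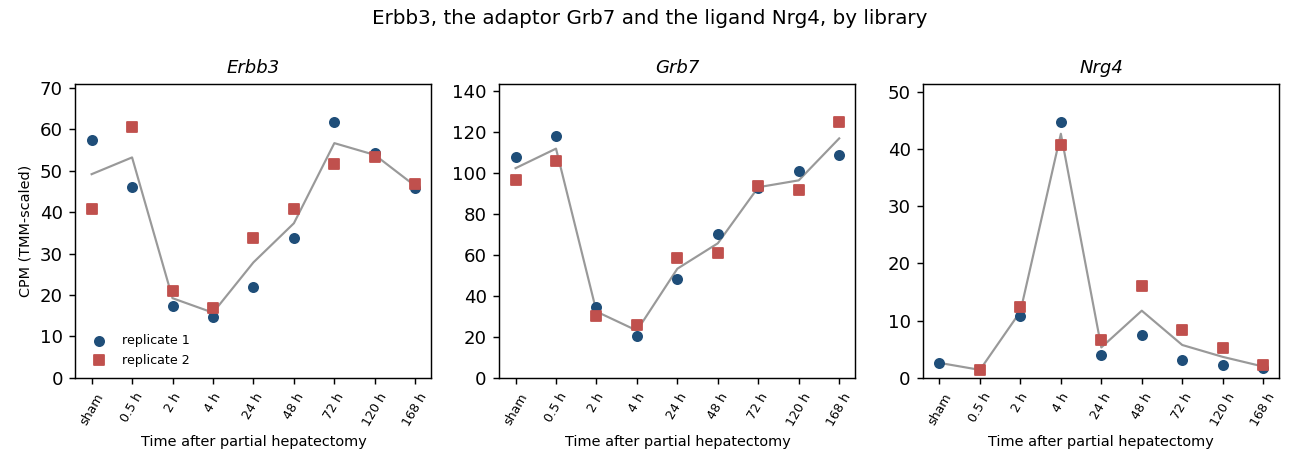
TMM-scaled CPM of Erbb3, its adaptor Grb7 and the neuregulin Nrg4 by library, 1 panel per gene with its own linear axis from 0; circles and squares are the pools numbered 1 and 2, lines join group means or single values, and times are evenly spaced. Erbb3 and Grb7 are lowest and Nrg4 highest at 4 h, and Nrg4 has 1 library in sham and 1 at 0.5 h.

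Gab1, the docking protein of Met and Egfr, changed by -0.89 ± 0.24 at 4 h (edgeR adjusted p = 0.0122), which was lost without sham replicate 1 (-0.83, 0.0694) or 4 h replicate 2 (-0.77, 0.0948). Further down the routes, Stat3, a transcription factor that receptors of several kinds activate, was 170 and 152 CPM in sham and 408 and 387 at 4 h. It rose by 1 ± 0.21 at 2 h (edgeR adjusted p = 0.00832) and by 1.3 ± 0.21 at 4 h (0.000331). The first was lost without sham replicate 2 (0.92, 0.0813) or 2 h replicate 2 (0.68, 0.0994), and the second held without each library.

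The kinase gene Braf and the PI3 kinase genes moved less. At 48 h the log2 changes of Braf, Pik3r1 and Pik3ca were -0.76, -0.75 and -0.70 (edgeR adjusted p = 0.0305, 0.0128 and 0.0369). Each call was lost without either sham or either 48 h pool. The change then ran from -0.59 to -0.90 for Braf and from -0.55 to -0.88 for Pik3ca, and stayed at -0.74 to -0.77 for Pik3r1. With library totals alone the calls of Braf and Pik3ca were lost too (edgeR adjusted p = 0.105 and 0.0994). At 4 h Braf and Pik3r1 had been called in the other direction, at 0.77 and 0.80 (edgeR adjusted p = 0.0234 and 0.00757), and with totals alone neither was (0.40, 0.217 and 0.43, 0.101). The Braf call at 4 h was also lost without sham replicate 2 or 4 h replicate 2, at up to 0.166. At 168 h Cd44, a co-receptor of Met that macrophages also carry, was 48.8 and 69.3 CPM against 14.5 and 18 in sham, a change of 1.86 ± 0.40 (0.0269). It was lost without any 1 of those 4 libraries (0.0535 to 0.25). The 7 Kupffer cell and macrophage markers, none at 0, then summed to 1039 to 1236 CPM against 465 in sham, and their part in Cd44 was not tested. Sos1 at 168 h, at -0.64 ± 0.14 (0.0297), was likewise lost without any of those 4 libraries (0.0734 to 0.262).

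Feedback genes of the MAP kinase route did not share a direction at 4 h. Dusp6, the ERK phosphatase, was 39.6 and 49.8 CPM in sham and 26.7 and 25.3 at 4 h, a change of -0.78 ± 0.26 (edgeR adjusted p = 0.0291) that was lost without sham replicate 2 (-0.61, 0.171), 4 h replicate 1 (-0.81, 0.0969) or 4 h replicate 2 (-0.73, 0.122). It rose from 4 h to 24 h by 1.09 ± 0.25 (0.00473), which held without each library. Spred1, an inhibitor of Ras signalling, changed by 1.22 ± 0.32 at 4 h (0.0116), lost without either sham pool (at most 0.0741) and with totals alone (0.85, 0.065). Lrig2, of the same family as the receptor inhibitor Lrig1, rose by 1.49 ± 0.37 (0.0163) against its 1 sham library and fell from 4 h to 24 h by 1.51 ± 0.29 (0.00247). The first of these was lost without 4 h replicate 2 (0.0809). Lrig1 was -0.63 ± 0.18 at 24 h (0.0285), lost without sham replicate 1 (-0.49, 0.205), sham replicate 2 (-0.75, 0.0557) or 24 h replicate 1 (-0.45, 0.15). Spry1, Spry2, Spry4, Spred2, Dusp4, Dusp5, Lrig3, Socs4 and Socs5 were not called against sham at any time. All of these but Spry4 were tested against 1 sham library, in the 16-library fit, where at most 15.5% of all genes were called at any time. Spred2 was 6.98 CPM in that library and 12.9 and 12.8 at 4 h. It was called lower from 4 h to 24 h (-0.92), a step without sham. That call was lost without either 4 h pool, without 24 h replicate 1 and with totals alone (-0.44).

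Genes whose log2 CPM followed each member most closely were ranked by Pearson r over the libraries of its fit, as a description without a test, since the libraries share the same 9 groups. Over 18 libraries and 4794 genes, Erbb3 was most like Proser2 (0.94), Grb7 (0.94) and Sphk2 (0.93), and least like Pfkfb3 (-0.93). Hgfac went with Slc27a5 (0.97), Tm7sf2 (0.96) and Cyp27a1 (0.96), genes of bile acid and sterol synthesis, and against Ran (-0.95). Errfi1 went with Arl15 (0.95), Plin5 (0.93) and Lurap1l (0.93), and against Vac14 (-0.93). Met was most like Ugp2 (0.92), Nfib (0.87) and A1cf (0.86) and least like Bag3 (-0.85), and Egfr was most like Wdr45b, Alkbh5 and B3galt1 (0.89 each) and least like Slc25a11 (-0.88). Over 16 libraries and 7017 genes, Hgf went with Nrd1 (0.95), Dnajc21 (0.94) and Ppil4 (0.94), and against Mov10 (-0.93). Between members r was 0.72 for Errfi1 with Egfr, -0.79 for Errfi1 with Erbb3 and -0.60 for Egfr with Erbb3, while Met with Hgfac was 0.02.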

How the data were processed

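Liver poly(A) RNA was sequenced in 18 libraries, each RNA of 3 mice pooled before library making, per the labels' protocols. Coordinates of the authors' counting refer to mm10 according to the submitters' processing notes, which leave aligner, counter and strand unnamed: not given in the sources used here. A deposited table holds 1 library with a read count per gene (reads mapped uniquely to it, per the file headers), the library total in its header, and RPKM, which the authors made from the count, the gene length and that total. Listed counts summed to the total in 16 tables. In sham replicate 2 and 0.5 h replicate 1 the tables ended at 52 and 157 reads, leaving 1.14% and 4.73% of reads unlisted.

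The counts went into edgeR's quasi-likelihood test (version 4.0.16, R 4.3.3; TMM, header totals as library sizes, all 9 groups in 1 fit), adjusted by Benjamini-Hochberg over all genes of a fit within each comparison, at 0.05. Each gene was tested in the largest set of libraries that lists it: 18 libraries (4906 genes, 9 residual degrees of freedom, biological coefficient of variation 0.139), 17 without 0.5 h replicate 1 (8026 genes, 8, 0.146) or 16 (12199 genes, 7, 0.166). A gene needed, in 2 libraries, the CPM equal to 10 reads at median depth, and 15 reads in all. TMM factors ran from 0.765 to 1.18. An SE is the size of the log2 change over the square root of F. RPKM values serve for levels per length only. Log2 CPM had a prior count of 2.

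The members and the gene lists were chosen with earlier results of these data known. All members are named; from the list of 57, up to 3 rises and 3 falls per time against sham with a mean of at least 10 CPM, plus EGF family ligands and feedback genes by role, are named; Erbb4 and steps between times were added after their values were seen. One gene that this rule names is not reported here. Alternatives were DESeq2 1.42.0, limma-trend (limma 3.58.1) on log2 CPM, log2(RPKM + 1) and log2(RPKM + 0.1), RLE factors, library totals alone, no filter, all genes in 16 libraries, unlisted genes taken as 0, only the 2 groups compared, a block for the replicate number and leaving out each library. The test was also run on simulated data. A gene with 0 reads is bounded by 3 reads, 0.327 to 0.386 CPM. Python 3.11.15, pandas 2.3.3 and matplotlib 3.10.9 were used for tables and figures.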

Additional observations from a re-analysis of the deposited data

How the results depend on the processing

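The number of members that differed over the whole course was 6, and 3 when unlisted genes of the short tables were taken as 0. Without each library in turn it ran from 5 to 7. Member calls against sham were 11, and 6 to 12 without each library in turn; the 6 came without sham replicate 1, where 48 of the 72 tests could be made, since the scarce members then have no sham library. Member calls between neighbouring times were 8, 5 with unlisted genes taken as 0, 5 with only the 2 groups compared (fewer residual degrees of freedom), and 7 to 9 without each library. Calls of the pathway list against sham were 36, 18 with all genes in the 16 complete libraries, which drops 1 sham library, and 12 with unlisted genes taken as 0, a setting that gives the short libraries false zeros. Without each library they ran from 21 without sham replicate 2 and 22 without 48 h replicate 2 to 44; without sham replicate 1 no such count was made, as 5 of the called tests have no other sham library. No call of a member or of a named list gene reversed under any setting. DESeq2 gave 14 member calls against sham, including all 11.

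Replicate numbers are in the labels. Over 36 pairs of groups the correlation of same-numbered deviations ran from -0.55 to 0.53 (median 0.04, with 14 above 0.1). Such values cannot tell whether same-numbered libraries share more than the number. With the number as a replicate block, the counts were 6, 11, 8 and 37 for the 4 results above.

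The limits are the 2 pools per group, a single sham library for Hgf, Hbegf, Erbb2 and Nrg4, and 141 and 170 reads in all for Erbb2 and Hbegf. Several calls were lost without sham replicate 1. They were those of Met at 4 h and 48 h, of Erbb3 at 24 h and of Errfi1 at 2 h and 72 h. Each was also lost without another library, and those of Errfi1 without sham replicate 2 too. The Errfi1 fall at 72 h was -0.53 with all libraries and -0.59 without sham replicate 1.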

Other observations

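Adam17, the main enzyme that sheds Tgfa, Areg and Hbegf, was between 0 and 0.547 CPM in the 16 complete libraries (0 reads in 3), while Adam10, which sheds Egf and Btc, was 21.3 to 51.3 CPM. Spint1 was 0 to 0.992 CPM beside 80.8 to 162 CPM for Spint2, and Mst1r, the receptor of the Met family that binds macrophage stimulating protein, was at most 0.595 CPM beside 70.1 to 114 CPM for its liver-made ligand Mst1. Such values near 0 are reads assigned by the authors' gene models, and whether those models missed reads of Adam17, Spint1 or Mst1r was not tested. These genes were chosen after their values were seen, and no test was made between genes.

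Plaur, the urokinase receptor of the protease system that can activate HGF, was 0.374 CPM in the sham library (3 reads), 2.55 and 3.54 at 2 h and 4.79 and 3.43 at 4 h. Its change at 4 h was 3.41 ± 0.89 (edgeR adjusted p = 0.0211), lost without 4 h replicate 1 (0.0746). It lies below the level set for naming genes and was chosen after its value was seen. The 6 matched neutrophil markers, none at 0, then summed to 60.8 to 135 CPM against 13 in sham, and their part in Plaur was not tested.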
